A study of Mus musculus with 8 samples.

Results

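The growth factor receptors of myeloid cells were followed here as a group of 8 genes, namely Flt3, Csf1r, Csf2ra, Csf2rb, Csf2rb2, Csf3r, Kit and Il3ra. They were chosen by name as the receptors of FLT3 ligand, CSF1, GM-CSF, G-CSF, stem cell factor and IL-3, and all 8 of the 8 were found among the 13786 protein-coding genes with counts. RNA had been sequenced from CD11c-positive splenocytes, labelled as dendritic cells (DCs), of female mice aged 7 weeks. The groups were 4 C57BL/6 mice and 4 B6.SLE123 mice, none of them given a treatment. B6.SLE123 is a lupus-prone congenic line that carries the Sle1, Sle2 and Sle3 intervals of an NZM strain on a C57BL/6 background, so every mouse shared most of that background. The genotype field of the labels adds 1 to the strain number from mouse to mouse (a name such as B6.SLE124), and strain was therefore taken from the sample titles and the study design.

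These receptors hand a cell its survival and growth signals. FLT3, the CSF1 receptor and KIT are receptor tyrosine kinases that dimerize around their ligand, while the receptors for GM-CSF, IL-3 and G-CSF lack a kinase of their own and signal through JAK2 and STAT5 or STAT3. FLT3 ligand drives the development of DCs, CSF1 maintains tissue macrophages, GM-CSF supports both lineages, G-CSF is known for neutrophil production, stem cell factor for progenitors and mast cells, and IL-3 for basophils and plasmacytoid DCs. GM-CSF and IL-3 each have a private alpha chain, encoded by Csf2ra and Il3ra, that pairs with the common beta chain encoded by Csf2rb. Mice also carry Csf2rb2, a close copy of Csf2rb whose product serves IL-3 alone.

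The table gave between 25563070 and 37367094 counts per mouse, and a single receptor gene had between 667 counts (Csf3r, B6.SLE123 replicate 4) and 85462 counts (Csf1r, C57BL/6 replicate 3). Values are CPM, a gene's counts divided by the TMM-scaled library size and brought to a common total, and differences are log2 fold changes of B6.SLE123 over C57BL/6 with their standard error (SE), tested by edgeR's quasi-likelihood test with adjustment over all genes. Markers bore out the DC label only in part. A list of 10 conventional DC genes, which includes Itgax (CD11c) and MHC class II genes, summed to between 29604 and 34418 CPM in C57BL/6 mice and between 37116 and 39755 CPM in B6.SLE123 mice. A list of red pulp macrophage genes, 14 of 15 measured, summed to between 13209 and 16662 CPM in C57BL/6 mice and between 2591 and 4377 CPM in B6.SLE123 mice. In bulk RNA such as this, fewer cells of a type and less RNA per cell cannot be told apart.

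PU.1, the factor whose binding the study examined, is a known regulator of several myeloid receptor genes. The 250 bases before the annotated start were therefore read for the receptor genes with a matched window. RefSeq windows on GRCm38.p6 were matched for 6 of the 8 genes, and the start meant here is that of RefSeq. No window was matched for Csf1r or Csf2rb, so these were not searched. The windows of Csf3r, Kit, Csf2ra and Il3ra reach into the genes at the positions used for counting. The windows of Kit and Flt3, which rose, and of Csf3r and Csf2ra, which fell, are printed below, 5′ to 3′ on the strand of the gene, with each match to a PU.1 core motif in capitals.

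Flt3, chr5:147400490-147400739, minus strand: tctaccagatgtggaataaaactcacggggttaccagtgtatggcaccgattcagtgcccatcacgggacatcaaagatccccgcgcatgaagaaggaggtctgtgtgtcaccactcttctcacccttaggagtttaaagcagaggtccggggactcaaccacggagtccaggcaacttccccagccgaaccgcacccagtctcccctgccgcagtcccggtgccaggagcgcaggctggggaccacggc

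Kit, chr5:75574737-75574986, plus strand: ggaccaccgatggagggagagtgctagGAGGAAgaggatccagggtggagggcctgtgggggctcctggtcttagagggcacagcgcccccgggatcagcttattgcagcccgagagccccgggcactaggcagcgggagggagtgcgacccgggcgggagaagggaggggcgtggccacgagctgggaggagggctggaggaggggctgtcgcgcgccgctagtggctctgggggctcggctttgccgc

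Csf3r, chr4:126024409-126024658, plus strand: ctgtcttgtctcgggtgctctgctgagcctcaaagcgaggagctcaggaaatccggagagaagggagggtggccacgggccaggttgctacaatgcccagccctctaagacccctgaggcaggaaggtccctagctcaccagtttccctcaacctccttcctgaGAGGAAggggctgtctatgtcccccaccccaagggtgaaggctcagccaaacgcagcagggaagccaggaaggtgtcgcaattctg

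Csf2ra, chr19:61228419-61228668, minus strand: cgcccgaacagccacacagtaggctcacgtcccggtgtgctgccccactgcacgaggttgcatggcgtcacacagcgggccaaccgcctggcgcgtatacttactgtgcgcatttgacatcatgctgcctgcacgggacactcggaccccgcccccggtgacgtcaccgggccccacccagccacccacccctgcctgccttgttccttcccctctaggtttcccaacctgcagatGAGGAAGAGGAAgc

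The letters searched were GAGGAA on both strands. They stood in the windows of 4 of the 6 genes, Csf2ra, Csf2rb2, Csf3r and Kit, and in 23.3% of all 32851 promoter windows of the same length. Csf2ra held a tandem pair, from -14 to -9 and from -8 to -3 relative to the start, Csf3r a match from -86 to -81, Kit from -223 to -218, and Csf2rb2 a match on the other strand from -167 to -162. No match to these letters was found before Flt3 or Il3ra. Genes with a match rose (Kit), fell (Csf3r, Csf2ra) or did not pass the test (Csf2rb2). A STAT5 motif (TTCNNNGAA, in 7.02% of windows) matched before Csf2rb2 alone, and a C/EBP motif (TTGCNNAA, in 9.56%) before Il3ra alone. The RUNX letters TGTGGT, present in 14% of windows, matched in none of the 6. By the positions used for counting, the matches of Csf3r and Il3ra and part of the Csf2ra pair lie inside the gene. Such a match is a run of letters and says nothing of binding.

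Transcripts of 6 of the 8 receptor genes differed between the strains at an adjusted p below 0.05, 4 lower and 2 higher in B6.SLE123 mice. Csf1r and Csf3r fell several-fold, Il3ra and Csf2ra fell by less, and Flt3 and Kit rose. Across all genes tested 53.4% were called, 26.7% higher and 26.6% lower. The count of 6 in 8, like the counts of the marker lists, is to be read against that background. Values of the mice did not overlap between strains for the same 6 receptor genes, against 48.9% of all genes. The median log2 fold change was -0.03 for the 8 receptor genes and -0.002 for all genes. Calls beyond 2-fold, as for Csf1r and Csf3r, made up 11.1% of all genes.

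**Figure D1:**
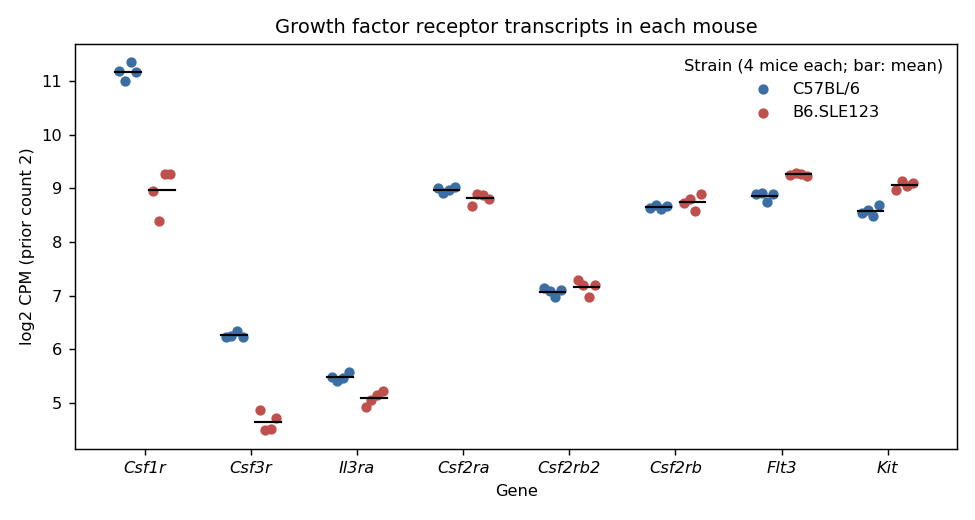
Log2 CPM (vertical axis, prior count 2) of the 8 receptor genes (horizontal axis, ordered by fold change) in 4 C57BL/6 and 4 B6.SLE123 mice, 1 point per mouse with a bar at the mean. The strains are fully apart for Csf1r, Csf3r, Il3ra, Csf2ra, Flt3 and Kit and overlap for Csf2rb and Csf2rb2.

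Csf1r encodes the receptor of CSF1 and IL-34. It was at 2338, 2043, 2606 and 2310 CPM in C57BL/6 replicates 1 to 4 and at 491, 335, 616 and 617 CPM in B6.SLE123 replicates 1 to 4. Every B6.SLE123 mouse lay far below every C57BL/6 mouse, and replicate 2 was the lowest of its strain. The means were 2324 ± 230.1 and 515 ± 134 CPM (SD, n = 4 each), and the gene fell by 2.18 on the log2 scale (SE 0.17, adjusted p = 2.20e-06, edgeR). Csf1r took between 50.3% and 57.5% of all counts of the 8 receptor genes in a C57BL/6 mouse, and between 12.6% and 22% in a B6.SLE123 mouse.

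The fall of Csf1r went together with that of macrophage markers. In the red pulp list 13 of the 14 measured genes fell and 1 rose (Gpr31b, picked for naming after its value was seen), and the median log2 fold change was -2.39. Its most abundant genes are Vcam1, an adhesion molecule, Slc40a1, the iron exporter ferroportin, and Sirpa, an inhibitory receptor also found on DCs, and they had log2 fold changes of -2.45, -2.68 and -0.91. A marginal zone macrophage list, all 7 genes of which fell, had a median of -2.05 and a range of summed levels from 950.2 to 1099 CPM in C57BL/6 against 191 to 323 CPM in B6.SLE123 mice. Measured against the summed red pulp list, Csf1r amounted to between 15.5% and 16.1% in C57BL/6 mice and between 12.9% and 16.2% in B6.SLE123 mice, and these ranges overlap. Of 13 monocyte genes 5 fell and none rose, beside 26.6% of all genes lower and 26.7% higher. Their median was -0.29, with sums of 569 to 699.8 CPM against 375 to 548 CPM. The part of macrophage or monocyte content in the fall of Csf1r was not tested.

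**Figure D2:**
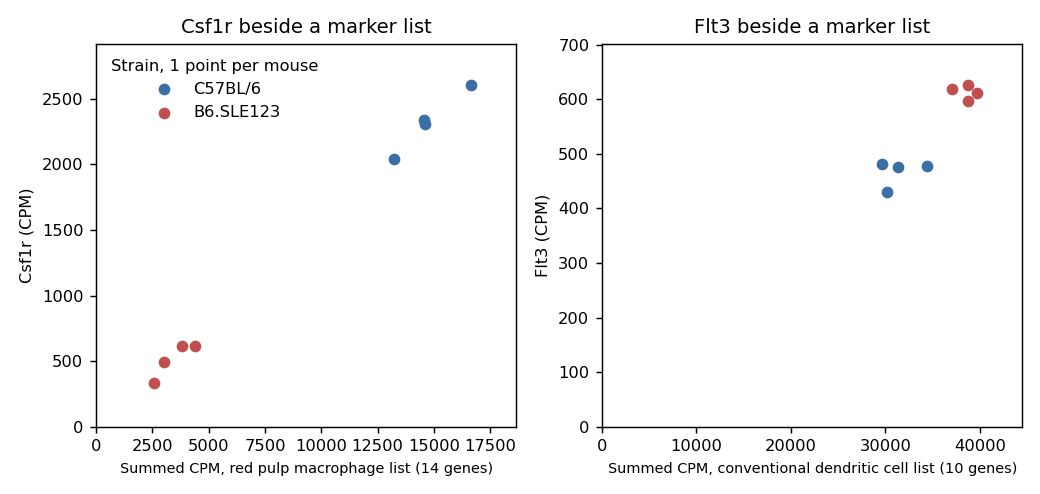
Left, Csf1r (vertical axis, CPM) against the summed CPM of 14 red pulp macrophage genes (horizontal axis); right, Flt3 against the summed CPM of 10 conventional DC genes; 1 point per mouse, 4 of each strain. Csf1r and the macrophage list are both low in the 4 B6.SLE123 mice, where Csf1r lies between 335 and 617 CPM, while Flt3 and the DC list are both high.

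Csf3r encodes the G-CSF receptor, which is best known from neutrophils. Its level was 75.1, 75.8, 80.4 and 74.6 CPM in C57BL/6 replicates 1 to 4, and 29.1, 22.3, 22.9 and 26.3 CPM in B6.SLE123 replicates 1 to 4. The spread within a strain was small and the strains were widely separated. The log2 fold change was -1.61 (SE 0.08, adjusted p = 1.79e-07, edgeR). Of 11 measured neutrophil genes, 3 rose, 3 fell and 5 did not pass, beside 53.4% of all genes called, with a median log2 fold change of -0.23. The 3 that rose were Ltf, Ngp and Camp, with log2 fold changes of 1.71, 1.52 and 1.66. They were picked for naming after their values were seen, and had means of 1.92, 1.88 and 0.51 CPM in B6.SLE123 mice. Il1r2, a decoy receptor for IL-1, and S100a9, a calprotectin subunit, had log2 fold changes of -0.44 and -0.23 (adjusted p = 0.122 and 0.544, edgeR). The summed neutrophil list was between 57.7 and 77.7 CPM in C57BL/6 and between 18.9 and 41.6 CPM in B6.SLE123 mice, and Mmp9, a matrix metalloproteinase that made up most of it in C57BL/6 mice, fell by 2.17 on the log2 scale. Against the summed neutrophil list, Csf3r amounted to between 97.6% and 139% in C57BL/6 mice and between 63.0% and 121% in B6.SLE123 mice, which overlap. Mmp9, at a mean of 47.0 CPM in C57BL/6 and 10.6 CPM in B6.SLE123 mice, weighs heavily in that sum. The share therefore says little of the other neutrophil genes. Against the summed red pulp list, Csf3r went from between 0.482% and 0.574% to between 0.600% and 0.958% with no overlap between strains. The part of neutrophil or macrophage content in the fall of Csf3r was not tested.

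Flt3, the receptor through which FLT3 ligand sustains DCs, was at 475, 481, 431 and 478 CPM in C57BL/6 replicates 1 to 4 and at 611, 626, 619 and 596 CPM in B6.SLE123 replicates 1 to 4. All 4 lupus-prone mice were higher, and C57BL/6 replicate 3, which had the highest Csf1r of the 8 mice, had the lowest Flt3. Flt3 rose by a log2 fold change of 0.39 (SE 0.05, adjusted p = 3.52e-05, edgeR), from 466 ± 23.9 to 613 ± 12.8 CPM (SD, n = 4 each).

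Kit, the receptor of stem cell factor, was at 371, 387, 355 and 409.9 CPM in C57BL/6 replicates 1 to 4 and at 499, 563, 529 and 549.6 CPM in B6.SLE123 replicates 1 to 4. Again the strains did not overlap. The log2 fold change was 0.49 (SE 0.06, adjusted p = 2.82e-05 by edgeR's test). Kit is also a marker of mast cells. Of a list of 12 mast cell and basophil genes only 3 were measured, Hdc, Cd200r3 and Gata2. They summed to between 4.43 and 7.60 CPM in any mouse and none passed the test. The mast cell genes Cpa3, Ms4a2 and Fcer1a were not analysed here. In a progenitor list 3 genes rose and 2 fell among 6 measured, and the list summed to between 53.5 and 57.9 CPM against 65.7 and 77.9 CPM. Its most abundant genes, Procr, Myb and Meis1, had log2 fold changes of 0.58, 0.29 and -0.29. Procr alone went from a mean of 24.5 CPM in C57BL/6 to 36.6 CPM in B6.SLE123 mice. Cd34, picked after its values were seen, had a log2 fold change of 0.77 (adjusted p = 0.00174, edgeR), at means of 2.40 and 4.08 CPM. The part of mast cell or progenitor content in the rise of Kit was not tested.

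Both rising receptors moved together with the conventional and type 1 DC lists, while a type 2 list moved in both directions. All 10 conventional DC genes rose, and their median log2 fold change was 0.30. Cd74, the invariant chain of MHC class II, rose by 0.25. Of 11 genes of type 1 conventional DCs, 9 rose and 1 fell, with a median of 0.82 and summed levels from 3703 to 4284 CPM against 5667 to 7563 CPM. Of 11 genes of type 2 conventional DCs, 2 rose, 3 fell and 6 did not pass, beside 53.4% of all genes called. Their median was -0.17 and their sums were lower in B6.SLE123 mice, at 2040 to 2480 CPM against 2820 to 2993 CPM in C57BL/6 mice. Sirpa, which is also in the red pulp list, was the most abundant of them. It fell from a mean of 1784 CPM in C57BL/6 to 950 CPM in B6.SLE123 mice, and the lower sums come from it. Cd209a, another of the genes that fell, is also in the marginal zone macrophage list. Relative to the conventional DC list, Flt3 was between 1.39% and 1.63% in C57BL/6 and between 1.54% and 1.67% in B6.SLE123 mice, which overlap, as did Kit at 1.18% to 1.31% against 1.25% to 1.45%. Relative to the type 1 list, Flt3 was lower in B6.SLE123 mice without overlap, at 8.28% to 10.5% against 10.6% to 13%, whereas Kit overlapped, at 7.27% to 9.70% against 8.66% to 10.9%. The part of a changed DC share in these rises was not tested.

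**Figure D3:**
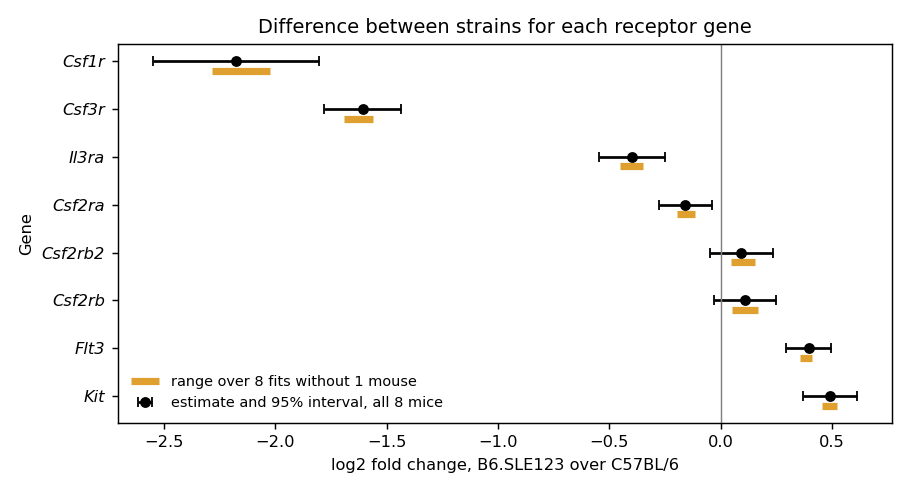
Log2 fold change of B6.SLE123 over C57BL/6 (horizontal axis) for each receptor gene (vertical axis), with points and black bars for the edgeR estimate and its 95% interval from 8 mice, and orange bars for the range over the 8 fits that each left out 1 mouse. The intervals of Csf2rb and Csf2rb2 include 0, and that of Csf2ra, from -0.28 to -0.04, comes close to it.

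Of the chains of the GM-CSF and IL-3 receptors, both alpha chains fell and neither beta chain passed the test. Csf2ra, the GM-CSF receptor alpha chain, was at 511, 482, 499.5 and 520.4 CPM in C57BL/6 replicates 1 to 4 and at 408, 476, 472 and 448 CPM in B6.SLE123 replicates 1 to 4. The strains were separated by a narrow gap, from 476 to 482 CPM. The log2 fold change of -0.16 (SE 0.05) passed edgeR's test at an adjusted p of 0.0282. It was no longer called without C57BL/6 replicate 1, 3 or 4, where the adjusted p was 0.0671, 0.0527 and 0.0537 and the log2 fold change -0.15, -0.16 and -0.15.

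Il3ra, the alpha chain for IL-3, was less abundant than Csf2ra, at 44.5, 42.3, 44.2 and 47.6 CPM in C57BL/6 replicates 1 to 4 and 30.1, 33.2, 35.2 and 37.1 CPM in B6.SLE123 replicates 1 to 4. Each B6.SLE123 mouse was below each C57BL/6 mouse, and the gene fell by 0.40 on the log2 scale (SE 0.07, adjusted p = 0.000462, edgeR). The list of plasmacytoid DC genes, in which Il3ra is not included, had 2 genes that rose, 4 that fell and 6 that did not pass. Beside it stand 53.4% of all genes called. The list had a median of -0.10 and summed levels of 541 to 579 CPM against 451 to 547.5 CPM. Il3ra amounted to between 7.31% and 8.79% of that sum in C57BL/6 and between 5.49% and 7.59% in B6.SLE123 mice, which overlap. Whether the plasmacytoid DC content bore on Il3ra was not tested.

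Csf2rb, the common beta chain, was at 399, 412, 389 and 405 CPM in C57BL/6 replicates 1 to 4 and at 426, 448, 379.9 and 476 CPM in B6.SLE123 replicates 1 to 4. Its copy Csf2rb2 was at 141, 135, 126 and 137 CPM against 157, 146, 126 and 146 CPM in the same order. In both genes B6.SLE123 replicate 3 was the lowest mouse of all and the other 3 lay above every C57BL/6 mouse. The log2 fold change was 0.11 for Csf2rb (95% interval -0.03 to 0.25, adjusted p = 0.167, edgeR) and 0.09 for Csf2rb2 (95% interval -0.05 to 0.24, adjusted p = 0.250, edgeR), so neither passed. Without B6.SLE123 replicate 3 both were called, at 0.17 (adjusted p = 0.0190) and 0.15 (adjusted p = 0.0290).

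To show how the chains stood to each other within a mouse, the log2 ratio of their levels per kb of exon was compared for 7 pairs of receptor genes by an exact two-sided permutation test, whose smallest p for 4 mice against 4 is 0.0286. Il3ra relative to Csf2rb was lower by 0.50 in B6.SLE123 mice and Il3ra relative to Csf2ra by 0.24, as the differences of mean log2 ratio were -0.50 and -0.24, each without overlap (exact p = 0.0286, adjusted over the 7 pairs 0.05). Csf2rb relative to Csf2ra differed by 0.26 with overlap (exact p = 0.0571, adjusted 0.08). The ratio of Csf2rb2 to Csf2rb lay between 0.498 and 0.542 in C57BL/6 and between 0.471 and 0.565 in B6.SLE123 mice, a difference of -0.01 on the log2 scale that is within the spread (exact p = 0.857). Kit relative to Flt3 differed by 0.10 (exact p = 0.143, adjusted 0.167). The widest difference was that of Csf1r relative to Flt3, a ratio of 4.54 to 6.47 in C57BL/6 mice and 0.571 to 1.11 in B6.SLE123 mice, or -2.61 on the log2 scale (exact p = 0.0286, adjusted 0.05). Csf1r was already lower and Flt3 higher in every B6.SLE123 mouse, so this separation and its p follow from the single genes. Csf3r fell less than Csf1r, and their ratio differed by 0.60 with the closest mice of the strains at 0.0593 and 0.0594 (exact p = 0.0286, adjusted 0.05). No adjusted p of the 7 pairs was below 0.05, and the pairs were added after the values were seen.

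Levels per exon length put the receptor genes in a clear order in C57BL/6 mice. In CPM per kb of exon, means were 403 ± 39.8 for Csf1r, 175 ± 5.80 for Csf2ra, 75.5 ± 3.88 for Flt3, 55.1 ± 1.33 for Csf2rb, 42.7 ± 2.61 for Kit, 28.4 ± 1.29 for Csf2rb2, 21.2 ± 0.73 for Csf3r and 15.0 ± 0.74 for Il3ra (SD, n = 4), and no neighbours in this order overlapped. In B6.SLE123 mice Csf2ra came first at 157 ± 10.9, followed by Flt3 at 99.2 ± 2.08, Csf1r at 89.1 ± 23.2, Kit at 60.1 ± 3.15, Csf2rb at 59.4 ± 5.57, Csf2rb2 at 30.3 ± 2.74, Il3ra at 11.4 ± 1.01 and Csf3r at 6.97 ± 0.88 CPM per kb (SD, n = 4). There the ranges of Flt3 and Csf1r, of Csf1r and Kit, and of Kit and Csf2rb overlapped. Dividing by the longest transcript in place of all exons gave the same order in both strains.

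**Figure D4:**
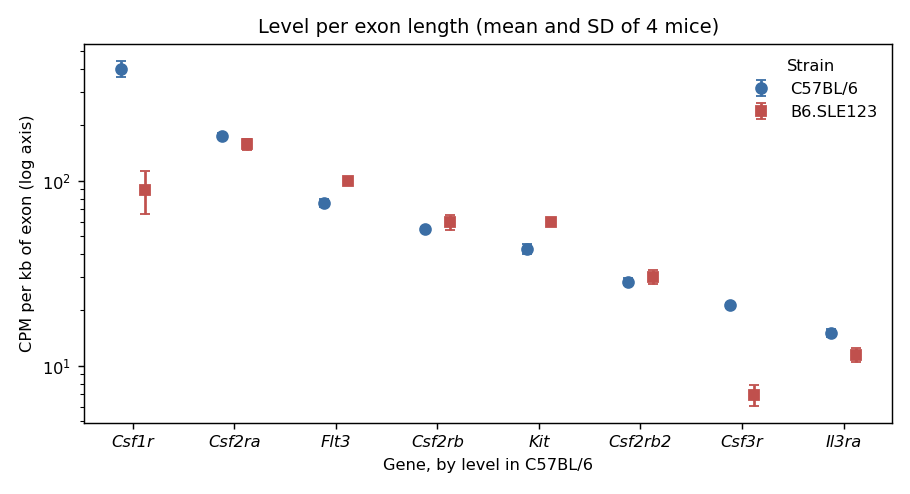
Level of each receptor gene (horizontal axis, ordered by C57BL/6) in CPM per kb of exon on a log axis, as mean and SD of 4 mice per strain. Csf1r is first in C57BL/6 at 403 and behind Csf2ra and Flt3 in B6.SLE123 at 89.1, and Csf3r moves from 21.2 to 6.97.

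Sequence shared with other genes limits some of these values. Of all 50-base words in annotated Csf2rb2 transcripts, 18.4% also occur in Csf2rb, and 6.82% of 100-base words do, so reads of the beta chains are uncertain between the copies, which lie on chromosome 15 in mm10 at 78282507 to 78305721 (Csf2rb2, minus strand) and 78325752 to 78353847 (Csf2rb, plus strand). Csf1r, on chromosome 18 from 61100598 to 61132149 on the plus strand, shares 15.1% of its exon bases with Hmgxb3 on the opposite strand, and it is not stated whether counting used the strand. Hmgxb3 itself was at 38.4 and 45.7 CPM in the strains, with a log2 fold change of 0.25. Csf3r, on chromosome 4 from 126024550 to 126044440, shares 8.84% of its 50-base words and 0.376% of its 100-base words with the annotated gene AC105061.2. Il3ra on chromosome 14 (14346275 to 14356011) overlaps Gm48860 on the opposite strand over 1.55% of its exon bases. Flt3 (147330741 to 147400489) and Kit (75574916 to 75656722), both on chromosome 5, and Csf2ra (chromosome 19, 61223957 to 61228429) share no exon bases with another gene.

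Genes within 1 Mb were also counted, since B6.SLE123 carries foreign intervals, and the counts are to be read against the 53.4% of all genes that were called and the 11.1% called beyond 2-fold. Around Csf3r 12 of 25 genes were called (48.0%), 3 higher and 9 lower, and 3 of them changed more than 2-fold. Around Csf1r 14 of 23 were called, 6 higher and 8 lower, 7 genes changed more than 2-fold, and the median log2 fold change was -0.002. Around Csf2ra 8 of 9 were called, none by more than 2-fold, and around Flt3 8 of 13, 7 of them higher. Around Csf2rb 21 of 40 and around its neighbour Csf2rb2 20 of 40 were called, around Kit 4 of 10 and around Il3ra 2 of 6. Genotypes were not used here.

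Genes whose mouse-to-mouse pattern lay closest to each receptor were found by the root mean square difference of log2 CPM over the 8 mice, each gene centred on its own mean, among 10619 genes with at least 100 counts on average. This is a description, in which the difference between strains carries most of the pattern. For Csf1r they were Tmem26, Slc16a10, a transporter of aromatic amino acids, and Timp2, a metalloproteinase inhibitor, at 0.06 log2 units each. Csf3r was nearest to Rasgrp1, a Ras exchange factor, at 0.06, followed by 6720489N17Rik at 0.09 and Shroom3 at 0.11. Flt3 was nearest to Zdhhc13, Lmnb2 (lamin B2) and Tmem29 at 0.03 to 0.04, and Kit to Kynu (kynureninase), Plp2 and Efcab14 at 0.03 to 0.04. Csf2ra came nearest to Clk2, Atxn2l and Kat8, all at 0.03, Csf2rb to Zfp629, Eya3 and Ryr1 at 0.04, Csf2rb2 to Tbc1d5, Syap1 and Mcrs1 at 0.04 to 0.05, and Il3ra to Rsrp1, Nectin4 and Slc50a1 at 0.04. Among the receptors themselves the closest pairs were Csf2rb with Csf2rb2 at 0.07 and Flt3 with Kit at 0.08, and the most distant was Csf1r with Kit at 1.39.

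Of the ligands, 3 of 8 listed genes had counts, and 1 fell. Kitl, which encodes stem cell factor, was at 18, 19.6, 24.2 and 22.9 CPM in C57BL/6 replicates 1 to 4 and at 2.78, 2.69, 4.65 and 4.68 CPM in B6.SLE123 replicates 1 to 4. Its log2 fold change was -2.53 (SE 0.18, adjusted p = 1.31e-06, edgeR), so the ligand fell while its receptor gene Kit rose. Kitl fell alongside the red pulp list, whose part was not tested. Flt3l, which encodes FLT3 ligand, was at 17.8, 18.2, 17.7 and 19.5 CPM against 13.3, 19.1, 20.9 and 17.8 CPM, with overlap and a log2 fold change of -0.04 (adjusted p = 0.791, edgeR), and it overlaps Gm45713 on the same strand. Csf1 was at 5.30, 8.48, 7.65 and 6.82 CPM against 6.80, 5.35, 5.18 and 5.20 CPM. Its log2 fold change was -0.33 (adjusted p = 0.0877, edgeR), and it passed without C57BL/6 replicate 1 (-0.44, adjusted p = 0.0198) or without B6.SLE123 replicate 1 (-0.43, adjusted p = 0.0362). Il34, Csf2, Csf3, Il3 and Il5 were not analysed here.

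Downstream genes moved in both directions, and the counts below stand beside a background of 53.4% of all genes called, 26.7% higher and 26.6% lower. In a signalling list of kinases, STATs and adaptors, 17 of 25 genes were called, 11 higher and 6 lower, with a median log2 fold change of -0.01. Dok2, an adaptor that restrains Ras, changed most, with -1.33 (SE 0.14, adjusted p = 1.97e-05, edgeR), from 9.36 to 3.73 CPM, though it overlaps Xpo7 on the opposite strand. Jak2, the kinase bound by the beta chains, had a log2 fold change of 0.57 and Stat5a of 0.43, while Stat5b was at -0.05 and did not pass (adjusted p = 0.281, edgeR). These 3 genes, like Tyrobp at -0.60 and Spi1 below, were picked for naming after their values were seen. Tyrobp encodes DAP12, an adaptor used in CSF1 receptor signalling. Stat5a overlaps Stat3 on the opposite strand.

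Among 20 negative regulators, 12 were called, 8 higher and 4 lower, with a median of 0.01. Without B6.SLE123 replicate 2 this count was 7. Of 13 STAT5 target genes 7 were called, 4 higher and 3 lower, with a median of 0.08. Both counts lie near the 53.4% called among all genes, and without C57BL/6 replicate 4 that of STAT5 targets was 3. A direct STAT5 target, Cish, was at 1.06 CPM in C57BL/6 mice and did not pass (log2 fold change -0.13, adjusted p = 0.662, edgeR), overlaps annotated genes on the opposite strand, and was also picked after its values were seen.

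**Figure D5:**
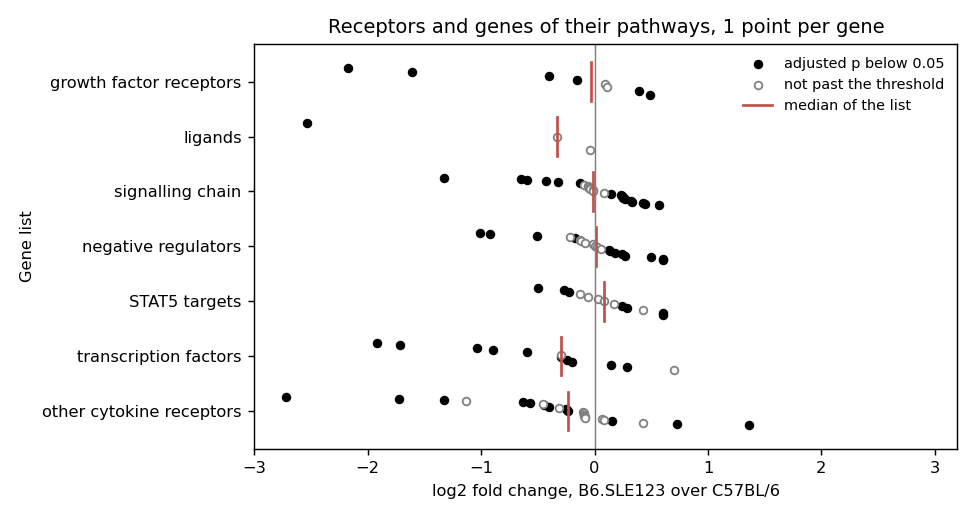
Log2 fold change of B6.SLE123 over C57BL/6 (horizontal axis) for the genes of 7 lists (vertical axis), 1 point per gene, filled where the adjusted p was below 0.05, with a red line at the median of each list. The receptor, signalling, regulator and STAT5 target lists have medians near 0, at -0.03, -0.01, 0.01 and 0.08, and members on either side.

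Of 12 measured transcription factors known to act on receptor genes, 10 were called, 8 lower and 2 higher, against 53.4% of all genes called and 26.6% lower, and the median log2 fold change was -0.29. Ets2, of the ETS family, fell from 41.7 ± 3.35 to 12.8 ± 3.01 CPM (SD, n = 4 each), by 1.71 on the log2 scale (SE 0.15, adjusted p = 3.90e-06, edgeR). Egr2, a zinc finger factor of macrophages, fell by 1.04. Spi1, which encodes PU.1, rose slightly, with a log2 fold change of 0.14 (adjusted p = 0.0169, edgeR). Ets2 and Egr2 also fell alongside the macrophage lists, whose part was not tested.

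Other cytokine receptor genes were called about as often as genes at large. Of 25 measured, 13 were called, 10 lower and 3 higher, beside 53.4% of all genes, with a median of -0.23. Epor, the erythropoietin receptor, was at 18.9, 17.8, 25 and 22.3 CPM in C57BL/6 replicates 1 to 4 and at 2.63, 1.80, 3.70 and 4.92 CPM in B6.SLE123 replicates 1 to 4, a log2 fold change of -2.72 (adjusted p = 3.95e-06, edgeR). Most erythroid genes were lower as well, and so were most red pulp macrophage genes, with a median of -2.39. The globin gene Hbb-bs was lowest in C57BL/6 replicate 4 and B6.SLE123 replicate 3. In these mice Epor was at 22.3 and 3.70 CPM, and the order of mice within a strain was not tested. In an erythroid list that includes Epor, 8 of 10 genes fell and 1 rose, with a median of -2.75, and Hba-a2, a globin gene whose reads are uncertain between it and its near copy Hba-a1, was at 0 in the B6.SLE123 mice. Of its most abundant genes, the globin genes Hbb-bs and Hba-a1 fell by 3.03 and 2.24 on the log2 scale, while Tfrc, the transferrin receptor, rose by 1.09. The summed list was between 192 and 389 CPM in C57BL/6 and between 246 and 298 CPM in B6.SLE123 mice, which overlap. Tfrc alone was at 103 to 130 CPM in C57BL/6 and 216 to 259 CPM in B6.SLE123 mice. It thus made up most of the sum in B6.SLE123 mice. The part of erythroid or macrophage content in the fall of Epor was not tested. Il9r, the alpha chain for IL-9, was higher in all 4 lupus-prone mice, at 12.9 to 14.7 CPM against 30.7 to 40.3 CPM, a log2 fold change of 1.36 (adjusted p = 6.48e-07, edgeR). Il5ra, another alpha chain that pairs with the common beta chain, was at 2.99, 3.76, 3.66 and 3.67 CPM against 2.31, 1.10, 0.80 and 1.46 CPM and had a log2 fold change of -1.32 (adjusted p = 0.00159, edgeR). All private alpha chains of the common beta family, Csf2ra, Il3ra and Il5ra, were thus lower in B6.SLE123 mice, by 0.16, 0.40 and 1.32 on the log2 scale, while the beta chain gene did not pass. This contrast is limited, as Csf2ra kept its call in only 5 of the 8 fits without 1 mouse. Csf2rb was called, as higher, without B6.SLE123 replicate 3, and Il5ra was of low abundance. Il5ra is also an eosinophil gene. Of 5 measured genes of an eosinophil list, Il5ra included, 4 fell and 1 rose, with summed levels of 348 to 471 CPM against 71.1 to 126 CPM, and Ccr3, a chemokine receptor, made up most of it in C57BL/6 mice. The part of eosinophil content was not tested.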

How the data were processed

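The libraries were stranded mRNA libraries, and the authors used cutadapt for trimming, STAR for alignment (genome mm10) and featureCounts for counting by gene, as stated in the methods and labels (versions and strand setting not given in the sources used here). The deposited table holds raw counts for 13786 genes and 8 mice, without normalization. It also holds the authors' deposited DESeq2 comparison, with a mean normalized signal, log2 fold change, score, p-value and fold change as a ratio, which was not used. The larger strain median was at least 5 counts for every gene in the table. Gene positions are those of the table, exon lengths those of GENCODE M21.

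Counts were scaled by TMM and fitted by strain in edgeR 4.0.16 (R 4.3.3, glmQLFit and glmQLFTest), with Benjamini-Hochberg adjustment over 13786 genes. The standard error is the absolute log2 fold change divided by the square root of the F statistic. A prior count of 2 entered log2 CPM. The fit was tested on simulated data. The alternatives were RLE and upper quartile factors, at least 10 counts in every sample, a replicate block, DESeq2 1.42.0, limma-voom (limma 3.58.1), other exon lengths, and each mouse left out. Mice of a strain differed by more than sampling noise (chi-square per degree of freedom 4.96 to 18.9) and each counted as 1 replicate. Nothing beyond the titles says that samples came from separate animals, so p-values cover the spread between these samples.

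Receptors and gene lists were chosen with earlier results of these data known. Named were the receptors, every measured ligand, of each other pathway list at most 4 genes called with an absolute log2 fold change above 1 and, in the higher strain, 100 counts or more on average, and from the marker lists only genes among the 3 most abundant, besides genes stated to be picked later and genes named only because they were not analysed, were at 0 or make up a count of 5 or fewer. The ratios within a mouse and the shares of marker lists were added after the values were seen.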

Additional observations from a re-analysis of the deposited data

Results flagged for a closer look

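In a group of 4 mice, the highest or lowest mouse was compared with the rest by Dixon's criterion, which chance passes in about 5% of groups. Of 84 groups examined, 5 held such a mouse. Flt3 was at 8.75 log2 CPM in C57BL/6 replicate 3, where the median of its strain was 8.90, and this mouse also had the highest Csf1r. The log2 ratio of Csf2rb to Csf2ra was -1.57 in C57BL/6 replicate 2 (median -1.70). Csf1 was at 2.78 log2 CPM in B6.SLE123 replicate 1 (median 2.42), and Il5ra at 1.61 in C57BL/6 replicate 1 (median 1.90). The mean log2 CPM of the neutrophil list was -0.27 in B6.SLE123 replicate 3 (median 0.72).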

How the results depend on the processing

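Of 252 values for the main comparisons under the alternatives, 242 gave the same call and sign, or a count within 1.5 times, and the 10 others all came from fits without 1 mouse. Over those 8 fits the log2 fold change ran from -0.194 to -0.117 for Csf2ra, from 0.049 to 0.17 for Csf2rb and from 0.046 to 0.15 for Csf2rb2, receptor genes that rose numbered from 2 to 4, called ligands from 1 to 2, negative regulators from 7 to 11 and STAT5 targets from 3 to 6. Fewer samples entered these fits, and no other cause was tested. Flt3l, at -0.04, ran from -0.13 to 0.073. For single other genes, lists, levels and ratios, 429 of 450 values were kept, and most of the rest are levels per kb, which rise with the shorter length of the longest transcript. With the replicate number as a block 7183 genes were called against 7356, and the same number of receptor genes, 6. Mice with the same number deviated together only weakly (correlations 0.08, 0.23, 0.10 and 0.12), and 2 of 4 C57BL/6 mice matched their own number best, so the numbers were not taken as pairs. Depth limits the least abundant genes most, such as Cish at about 1 CPM.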
